A study of Mus musculus with 10 samples.

Results

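The 53 genes described here encode the machinery of DNA replication (23 genes) and of mitosis (30 genes), out of 17495 genes tested in epithelial cells sorted from mouse pancreatic tumours. They were listed by name for their known roles, and not by any threshold on measured values, though earlier results of these data were known. All 53 were found in the deposited quantifications, and all 53 passed the filter on low counts, with a lowest value of 193 counts, for Cdt1, in any library. The study asked how loss of Egfr, the receptor of the epidermal growth factor family, in co-transplanted stellate cells alters the tumour epithelium. T6-LOH organoids, cultures of pancreatic ductal adenocarcinoma from the KPC mouse model, were transplanted orthotopically, that is into the pancreas, with pancreatic stellate cells (PSCs), the cells that become fibroblasts around such tumours. Epithelial cells were then sorted by flow cytometry, and their RNA was sequenced in 10 libraries.

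The Egfr WT PSC group (WT group) had 5 libraries, from tumours grown with the PSC line labelled PSC4 ROSA (egfr), a Rosa control read here as the Egfr WT PSC of the series title. The Egfr KO PSC group (KO group) had 5 libraries, from tumours grown with the line PSC4 EGFR KO B4. The organoids were the same in both groups, and only the PSCs carried the knockout, so the level of Egfr in these libraries does not check the labels. Only 1 knockout line was used, so loss of Egfr and other properties of that line cannot be told apart. The strain label is C57BL/6J for every library, while NSG hosts, which are immunodeficient, are named in the title of the series. No age or time after transplantation is given in the labels. Whether every library is from its own mouse is not stated either, and p-values therefore reflect only the variation among these 10 libraries.

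Before it divides, a cell copies its DNA in S phase. The MCM helicase is loaded onto replication origins by Cdc6 and Cdt1, is activated by Cdc45 and the GINS complex, and unwinds DNA for the polymerases, which are held on the template by the sliding clamp PCNA. In mitosis, cyclin B with CDK1, the Polo and Aurora kinases, the kinetochore and spindle motors separate the copies, and the APC/C ubiquitin ligase with Cdc20 ends the phase. Transcription of the replication genes is classically driven by E2F factors. Many mitosis genes carry a cell cycle homology region (CHR) and CCAAT boxes near their start, which are bound by the DREAM and MuvB complexes and by NF-Y.

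Because the members are known for these promoter elements, reference promoter sequences were examined beside the expression data. RefSeq windows of 300 bases, from 250 before to 50 after a gene's start in GRCm38.p6, were at hand for 42 of the 53 genes, as 46 windows. They covered 17 replication genes in 20 windows and 25 mitosis genes in 26 windows. The windows were searched on both strands for an E2F core (TTCCCGC or TTCGCGC, or else TTGCCGC or TTGGCGC), a CHR (TTTGAA or TTCGAA) and a CCAAT box (CCAAT). An E2F core was found in 14 of 20 replication windows (70%), in 4 of 26 mitosis windows (15.4%) and in 9.57% of all 32851 windows. A CHR was found in 4 replication windows (20%), in 21 mitosis windows (80.8%) and in 19.2% of all windows. A CCAAT box was found in 60% of replication windows, 80.8% of mitosis windows and 37.4% of all windows. A window with both a CHR and a CCAAT box was found for 19 of 26 mitosis windows (73.1%), against 3 of 20 replication windows (15%) and 7.52% of all windows. The 2 gene sets therefore differed in these letters near the start, the E2F core being more common in replication windows and the CHR in mitosis windows. The median GC content was 62.2% in replication windows, 59.8% in mitosis windows and 52.7% in all windows, so the sets also differ from the whole in base composition. A match describes letters only and says nothing of binding in these cells.

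The 6 windows printed here are examples and were not chosen as typical, each read 5′ to 3′ along the gene's own strand with matches in capitals. The replication genes were taken for their expression: Mcm6 for its own pattern across libraries, Mcm3 for tracking the replication set most closely, and Uhrf1, with 1 of its 2 windows, for the lowest unadjusted p. The mitosis windows are of Cdk1, which is the kinase of mitotic entry, of Ccnb2 as an exception in spread, and of Top2a as a marker of cycling cells.
Mcm6 chr1:128359656-128359955, minus strand: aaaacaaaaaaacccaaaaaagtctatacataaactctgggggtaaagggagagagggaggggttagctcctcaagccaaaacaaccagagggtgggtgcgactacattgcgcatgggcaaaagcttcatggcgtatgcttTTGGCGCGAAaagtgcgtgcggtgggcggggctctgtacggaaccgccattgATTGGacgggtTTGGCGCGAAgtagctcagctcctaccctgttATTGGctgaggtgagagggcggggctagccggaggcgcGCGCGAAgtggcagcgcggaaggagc
Mcm3 chr1:20820263-20820562, minus strand: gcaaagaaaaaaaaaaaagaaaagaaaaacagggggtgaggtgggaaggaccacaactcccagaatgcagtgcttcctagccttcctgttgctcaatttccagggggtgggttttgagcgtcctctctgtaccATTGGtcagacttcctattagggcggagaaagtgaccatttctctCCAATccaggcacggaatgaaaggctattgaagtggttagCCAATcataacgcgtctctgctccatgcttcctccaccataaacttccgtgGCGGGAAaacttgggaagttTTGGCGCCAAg
Uhrf1 chr17:56303087-56303386, plus strand: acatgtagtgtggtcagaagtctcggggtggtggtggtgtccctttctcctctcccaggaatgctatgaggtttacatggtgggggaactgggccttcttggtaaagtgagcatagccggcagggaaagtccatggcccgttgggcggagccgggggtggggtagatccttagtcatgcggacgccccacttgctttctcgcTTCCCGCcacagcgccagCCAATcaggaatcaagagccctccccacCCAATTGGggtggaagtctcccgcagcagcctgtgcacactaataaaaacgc
Cdk1 chr10:69352863-69353162, minus strand: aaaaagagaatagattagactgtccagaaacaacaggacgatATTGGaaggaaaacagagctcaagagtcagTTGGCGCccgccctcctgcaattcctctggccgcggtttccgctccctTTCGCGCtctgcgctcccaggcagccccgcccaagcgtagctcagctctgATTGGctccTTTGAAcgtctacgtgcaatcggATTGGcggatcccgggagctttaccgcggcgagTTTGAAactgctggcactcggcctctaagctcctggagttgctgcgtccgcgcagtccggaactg
Ccnb2 chr9:70421505-70421804, minus strand: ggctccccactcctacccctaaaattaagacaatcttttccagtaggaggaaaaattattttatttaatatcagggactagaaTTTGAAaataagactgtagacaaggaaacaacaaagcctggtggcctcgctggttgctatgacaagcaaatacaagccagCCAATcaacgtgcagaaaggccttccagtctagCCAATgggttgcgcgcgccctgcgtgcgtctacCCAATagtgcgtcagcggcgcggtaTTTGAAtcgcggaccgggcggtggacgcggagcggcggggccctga
Top2a chr11:99024140-99024439, minus strand: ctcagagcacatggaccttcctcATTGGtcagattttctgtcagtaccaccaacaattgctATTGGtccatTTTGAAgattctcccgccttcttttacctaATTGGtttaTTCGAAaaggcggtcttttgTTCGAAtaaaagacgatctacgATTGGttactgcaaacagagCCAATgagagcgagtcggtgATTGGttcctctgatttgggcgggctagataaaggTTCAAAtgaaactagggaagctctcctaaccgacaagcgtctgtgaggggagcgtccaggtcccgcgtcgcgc

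The Mcm6 and Mcm3 windows carry E2F cores that overlap one another on opposite strands, as TTGGCGCGAA or TTGGCGCCAA, and such overlap occurred in 4 of the 46 windows. An E2F core overlapped a CCAAT box in 2 of the 46 windows. The window of Ccnb2 holds CHR and CCAAT matches and no E2F core, as does that of Top2a. That of Cdk1 holds all 3 kinds, though only 4 of the 26 mitosis windows had an E2F core. In the mitosis windows the CHR matches had a median position of -10 bases from the start, and the CCAAT matches lay upstream with a median of -74.5 bases.

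**Figure D1:**
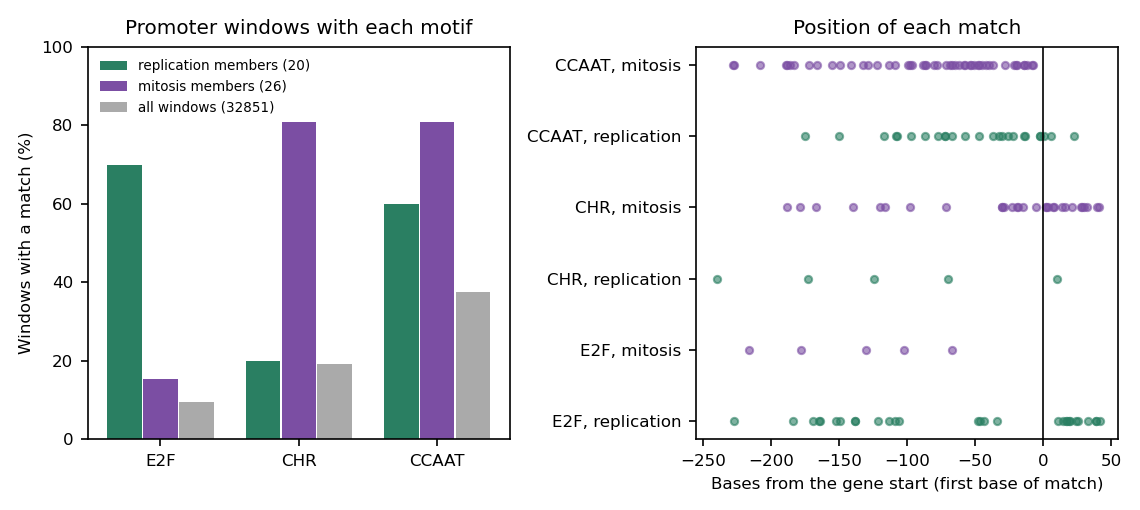
Share of promoter windows with each motif (left, bars, percent of windows in replication members, mitosis members and all windows) and position of each match in bases from the gene start (right, 1 point per match). The E2F bar is highest for replication members (70%) and the CHR bar for mitosis members (80.8%), and CCAAT matches in mitosis windows lie from -228 to -7.

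A pair of scores summarises the genes in each library. The replication score is the mean log2 CPM over the 23 replication genes and the mitosis score the mean over the 30 mitosis genes, where CPM is the count scaled to a common library total with TMM factors. The replication score was 5.55, 5.31, 5.33, 5.55 and 5.59 in Egfr WT PSC replicates 1 to 5 and 5.15, 5.77, 6.10, 5.75 and 5.01 in Egfr KO PSC replicates 1 to 5. All 5 Egfr WT PSC libraries lay between the 2 lower Egfr KO PSC libraries, replicates 1 and 5, and the 3 higher ones, replicates 2, 3 and 4. The mitosis score was 5.69, 5.36, 5.05, 5.42 and 5.47 in the WT group and 4.83, 5.74, 5.97, 5.36 and 4.86 in the KO group. Egfr KO PSC replicate 3 was again highest and replicates 1 and 5 lowest, while Egfr WT PSC replicate 1 lay close to Egfr KO PSC replicate 2.

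The group means of the scores were close, and the groups differed more in spread than in level. The replication score was 5.47 ± 0.13 in the WT group and 5.56 ± 0.46 in the KO group (mean ± SD, n = 5), a difference of 0.09. The mitosis score was 5.40 ± 0.23 and 5.35 ± 0.51, a difference of -0.04. Both differences were smaller than the SD within either group, and the sign of each turned when single libraries were left out, the replication difference to -0.04 without Egfr KO PSC replicate 3 and the mitosis difference to 0.09, 0.08 and 0.03 without Egfr KO PSC replicate 1, Egfr KO PSC replicate 5 or Egfr WT PSC replicate 1. From its lowest to its highest library the replication score covered 2.12-fold with Egfr KO PSCs and 1.21-fold with Egfr WT PSCs. The mitosis score covered 2.19-fold and 1.56-fold. Together the 53 genes took 0.307 ± 0.0306% of the counts in the WT group and 0.329 ± 0.121% in the KO group. In bulk RNA, fewer cycling cells and less of these RNAs per cell cannot be told apart.

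**Figure D2:**
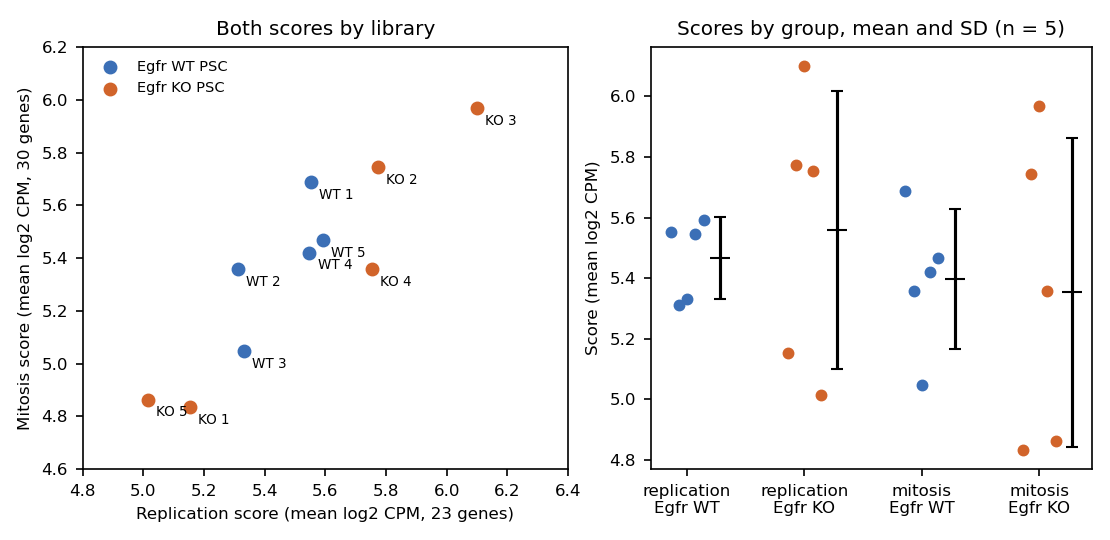
Replication against mitosis score by library (left, 1 point per library, mean log2 CPM) and both scores by group with mean and SD (right, n = 5 per group). The Egfr KO PSC points reach from 5.01 to 6.10 in the replication score, with the Egfr WT PSC points between 5.31 and 5.59.

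The 2 scores rose and fell together across libraries. Over the 10 libraries Pearson's r was 0.90 and Spearman's rho 0.83, and with the group means subtracted they were 0.92 and 0.89. Without the 2 libraries farthest from the median of the replication score, Egfr KO PSC replicates 3 and 5, r was 0.79 and rho 0.69 over 8 libraries. These are descriptions, since the points share library preparation and scaling and the genes were listed together. The mitosis score minus the replication score was -0.07 ± 0.16 in the WT group and -0.21 ± 0.15 in the KO group, with overlapping ranges. It was lowest in Egfr KO PSC replicate 4 (-0.40), whose replication score was among the 3 highest while 6 libraries had a higher mitosis score. It was highest in Egfr WT PSC replicate 1 (0.13), the Egfr WT PSC library of highest mitosis score.

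Most single genes, but not all, varied with their set across the libraries. Against the mean of the other genes of its own set, the correlation over 10 libraries was above 0.8 for 20 of 23 replication genes (median 0.90) and for 22 of 30 mitosis genes (median 0.94). Of the 17442 other genes tested, 2.11% passed 0.8 with the replication score and 1.28% with the mitosis score, with medians near 0. The replication genes below 0.8 were Mcm6 (0.39), E2f1 (0.48) and Gins2 (0.77). Among mitosis genes the lowest were Kif20a (0.58), Anln (0.62), Ccnb2 (0.64), Cdc20 (0.64) and Bub1 (0.68), followed by Ccnb1 (0.75), Kif23 (0.75) and Ndc80 (0.76). Aurkb, the kinase of the chromosomal passenger complex, tracked its set most closely (0.98), and among replication genes Mcm3 did (0.96). Pairs of replication genes had a median r of 0.81 (253 pairs), pairs of mitosis genes 0.81 (435 pairs) and pairs across the sets 0.73 (690 pairs). Across the sets, 549 of the 690 pairs were above 0.5.

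**Figure D3:**
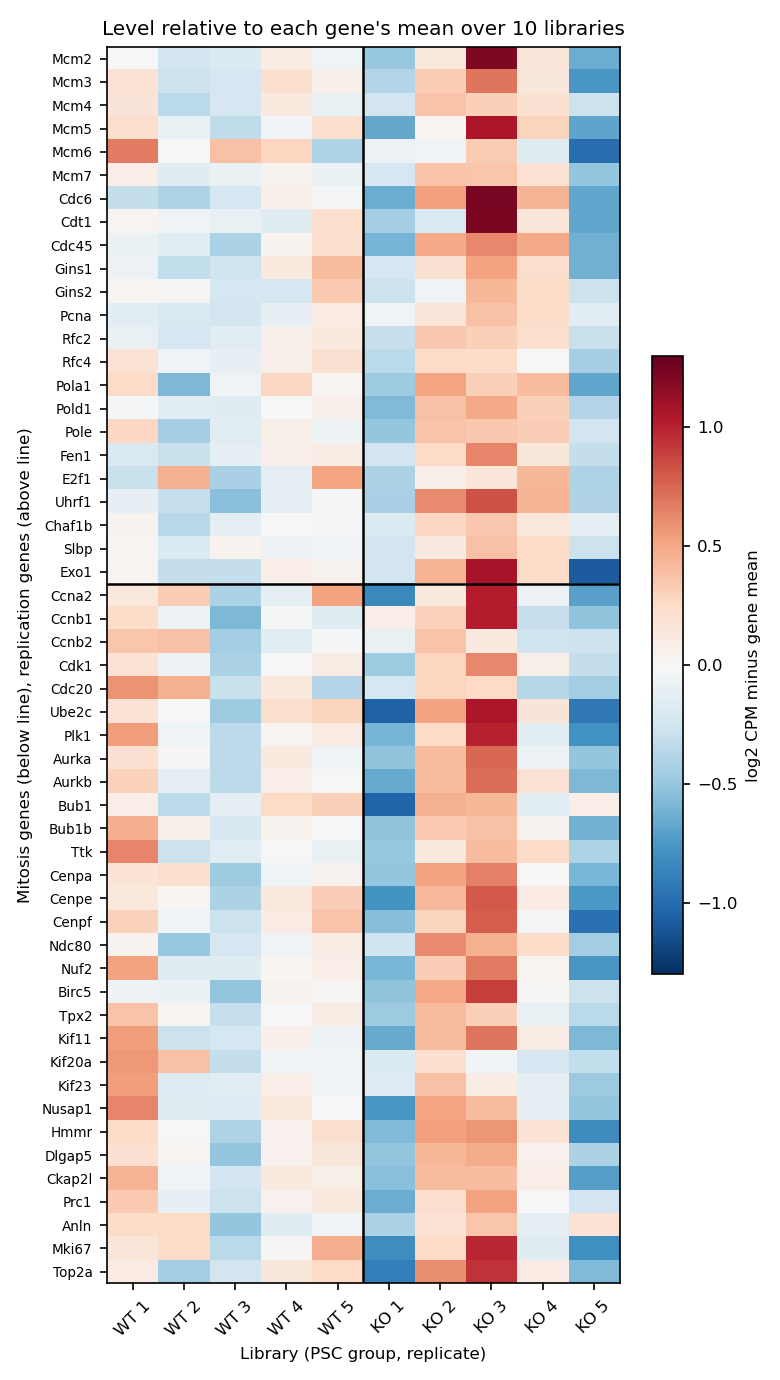
Level of each of the 53 genes in each of the 10 libraries, as log2 CPM minus the gene's mean over the libraries (red above, blue below the mean; replication genes above the horizontal line). Egfr KO PSC replicate 3 is the highest library for 34 genes, and Egfr KO PSC replicates 5 and 1 are the lowest for 25 and 19 genes.

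The origin licensing and helicase genes had the widest mean score of the 3 replication groups in the KO group, where it covered 2.53-fold between libraries, against 1.68-fold for polymerase and clamp genes and 2.02-fold for the remaining replication genes. Fold changes of single genes are log2 values of the KO group over the WT group from edgeR. Mcm2 was at 88.1, 73.8, 77.9, 93.8 and 84.7 CPM in the Egfr WT PSC libraries, replicates 1 to 5, against 62.5, 96.9, 204, 98.2 and 56.2 CPM in the Egfr KO PSC libraries. Mcm2 encodes a subunit of the helicase, and its Egfr KO PSC libraries lay both above and below all 5 Egfr WT PSC libraries (group means 83.7 ± 7.96 against 104 ± 59.4 CPM, mean ± SD, n = 5; edgeR log2 fold change 0.31, SE 0.29 and adjusted p = 0.812). The loading factor Cdc6 was at 21.4, 20.1, 22.5, 27.7 and 26 CPM in the WT group against 16.9, 38.3, 62.2, 35.9 and 16.5 CPM in the KO group. Its 3 highest values, like its 2 lowest, were all with Egfr KO PSCs (23.5 ± 3.22 against 33.97 ± 18.8 CPM; edgeR log2 fold change 0.53, SE 0.32 and adjusted p = 0.703), and without Egfr KO PSC replicate 3 the fold change was 0.20. The other loading factor, Cdt1, was at 7.39, 6.97, 6.78, 6.46 and 8.34 CPM in the WT group against 5.301, 6.31, 16.9, 8.07 and 4.51 CPM in the KO group. Egfr KO PSC replicate 3 stood alone at the top for Cdt1, and the other 9 libraries lay between 4.51 and 8.34 CPM. The other helicase subunits Mcm3 (0.09), Mcm4 (0.16), Mcm5 (0.14) and Mcm7 (0.11) had small positive fold changes, with the highest or next highest level in Egfr KO PSC replicate 3. Cdc45, Gins1 and Gins2, which complete the active helicase, had fold changes of 0.24, 0.07 and 0.04.

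Mcm6 stood apart from the other helicase subunits. Mcm6 was at 131, 81.5, 106, 99.2 and 61.9 CPM in the Egfr WT PSC libraries, replicates 1 to 5, against 77.4, 79.6, 103, 73.2 and 41.2 CPM in the Egfr KO PSC libraries. Its highest library was Egfr WT PSC replicate 1 and its lowest Egfr KO PSC replicate 5, and the groups overlapped (95.99 ± 26.05 against 74.8 ± 22.01 CPM; edgeR log2 fold change -0.36, SE 0.24 and adjusted p = 0.719). Its fold change was -0.22 without the former library and -0.20 without the latter. It was 1 of 3 replication genes with a negative fold change, the others being the clamp loader subunit Rfc4 (-0.10) and the transcription factor E2f1 (-0.07). Of the 11 licensing and helicase genes, 10 had a fold change above 0, with a median of 0.14 on the log2 scale.

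The polymerase and clamp genes varied less. Pcna was at 139, 133, 129, 142 and 163 CPM in the Egfr WT PSC libraries, replicates 1 to 5, against 146, 169.6, 197, 180.0 and 138 CPM in the Egfr KO PSC libraries. The clamp gene Pcna was higher than 163 CPM, the top Egfr WT PSC value, in Egfr KO PSC replicates 2, 3 and 4 (141 ± 13.5 against 166 ± 24.4 CPM; edgeR log2 fold change 0.24, SE 0.12 and adjusted p = 0.644). Reads assigned to a Pcna pseudogene, Pcna-ps2, came to at most 0.848% of those of Pcna. That share is itself an outcome of how shared reads were divided, so it cannot show the effect of the division. Fen1, the nuclease that trims Okazaki fragments, was at 66.9, 62.9, 70.3, 80.6 and 82.2 CPM in the WT group against 64.6, 91.4, 119, 84.9 and 61.9 CPM in the KO group. Its Egfr KO PSC values again enclosed those with Egfr WT PSCs (edgeR log2 fold change 0.22, SE 0.17 and adjusted p = 0.770), and the fold change was 0.07 without Egfr KO PSC replicate 3. The catalytic polymerase subunits Pola1, Pold1 and Pole had fold changes of 0.08, 0.16 and 0.15, and the clamp loader subunit Rfc2 of 0.13. Of the 7 genes 6 were above 0, with a median of 0.15.

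Among the remaining replication genes, Uhrf1 had the lowest unadjusted p of all 53. It encodes the factor that carries DNA methylation through replication. Uhrf1 was at 78.4, 68.8, 58.2, 77.3 and 83.95 CPM in the Egfr WT PSC libraries, replicates 1 to 5, against 63.3, 129.9, 151, 115 and 64.6 CPM in the Egfr KO PSC libraries. Egfr KO PSC replicates 2, 3 and 4 lay above every Egfr WT PSC library, and replicates 1 and 5 lay within the Egfr WT PSC range (73.3 ± 10.04 against 105 ± 39.2 CPM; edgeR log2 fold change 0.51, SE 0.23 and adjusted p = 0.607). Its unadjusted p was 0.0484 in edgeR. Chaf1b, a subunit of the chromatin assembly factor CAF-1, was at 28.4, 21.3, 25.2, 27.5 and 27.1 CPM in the WT group against 24.1, 32.9, 34.9, 30.04 and 25.1 CPM in the KO group (edgeR log2 fold change 0.18, SE 0.13 and adjusted p = 0.744). The repair nuclease Exo1 had a wide spread, from 5.96 CPM in Egfr KO PSC replicate 5 to 26.6 CPM in replicate 3 (fold change 0.34). Slbp, which binds the stem-loop of histone mRNAs, had a narrow one, from 188 to 297 CPM in the same libraries (fold change 0.11).

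The genes of mitotic entry and exit showed no common direction. Ccnb1 was at 82.2, 66.8, 46.5, 69.2 and 62.4 CPM in the Egfr WT PSC libraries, replicates 1 to 5, against 74.2, 85.6, 141, 56.8 and 48.6 CPM in the Egfr KO PSC libraries. Cyclin B1, its product, activates CDK1, and its highest and second highest libraries had Egfr KO PSCs while its lowest was Egfr WT PSC replicate 3 (65.4 ± 12.9 against 81.3 ± 36.6 CPM; edgeR log2 fold change 0.31, SE 0.26 and adjusted p = 0.782). Without Egfr KO PSC replicate 3 the fold change of Ccnb1 was 0.03. Cdk1 itself was at 53.3, 44.6, 35.3, 46.7 and 50.1 CPM in the WT group against 33.9, 56.7, 72.2, 49.2 and 37.7 CPM in the KO group (fold change 0.12). Cdc20, the activator of the APC/C, was at 69.8, 63.9, 37.9, 50.98 and 35.7 CPM in the WT group against 39.6, 56.5, 55.7, 36.04 and 34.1 CPM in the KO group. Its highest libraries were Egfr WT PSC replicates 1 and 2, and the other libraries of the groups overlapped (51.7 ± 15.2 against 44.4 ± 10.9 CPM; edgeR log2 fold change -0.22, SE 0.22 and adjusted p = 0.822). The fold change of Cdc20 was -0.09 and -0.13 without replicate 1 or 2 of the WT group, and -0.13 without replicate 5 of the KO group. Ube2c, the ubiquitin-conjugating enzyme of the same ligase, had the largest SD of log2 CPM of the 53 genes in the KO group (0.92), with libraries from 34.1 to 147 CPM (fold change 0.10). Cyclin A2 (Ccna2, -0.06) and cyclin B2 (Ccnb2, -0.06) had fold changes near 0.

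The 6 mitotic and checkpoint kinases had fold changes between -0.11 (Bub1b) and 0.11 (Aurkb), 3 above and 3 below 0. Plk1, the Polo kinase of mitotic entry, was at 59.3, 39.3, 32.1, 41.8 and 43.9 CPM in the WT group against 26.8, 48.6, 81.9, 37.1 and 23.7 CPM in the KO group. Egfr KO PSC replicate 3 was highest and replicates 5 and 1 lowest, with all Egfr WT PSC libraries between them, and the fold change was 0.01. Aurka, which acts at spindle poles, was at 37.9, 33.4, 26.1, 36.1 and 31.8 CPM in the WT group against 22.96, 43.98, 55.4, 31.6 and 23.4 CPM in the KO group. It had the same ends (fold change 0.10). The checkpoint kinase genes Bub1 and Ttk had fold changes of -0.01 and -0.04.

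At the centromere and kinetochore, 4 of 6 genes had a fold change above 0. Birc5, which encodes survivin of the chromosomal passenger complex, was at 46.2, 45.6, 33.9, 50.1 and 48.8 CPM in the WT group against 33.6, 68.5, 90, 48.8 and 39.9 CPM in the KO group. Egfr KO PSC replicates 2 and 3 exceeded every other library, and Egfr WT PSC replicate 3 lay with the lowest Egfr KO PSC value (44.9 ± 6.45 against 56.2 ± 23.04 CPM; edgeR log2 fold change 0.32, SE 0.24 and adjusted p = 0.753). The fold change of Birc5 was 0.10 without Egfr KO PSC replicate 3. Ndc80, which couples kinetochores to microtubules, was at 20.5, 14.1, 17.1, 19.3 and 21.2 CPM in the WT group against 16.6, 30.5, 27.3, 23.5 and 14.6 CPM in the KO group. Its 3 highest libraries were Egfr KO PSC replicates 2, 3 and 4 (18.4 ± 2.89 against 22.5 ± 6.82 CPM; edgeR log2 fold change 0.29, SE 0.21 and adjusted p = 0.744), and the fold change was 0.16 without replicate 2. Its partner Nuf2 (-0.05), the motor Cenpe (0.03), Cenpf (-0.07) and the centromeric histone Cenpa (0.11) had smaller fold changes.

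The 10 spindle and cytokinesis genes had the lowest median, -0.04, with 4 above and 6 below 0. Kif20a, a motor of cytokinesis, was at 114, 101, 62.7, 75.8 and 75.5 CPM in the WT group against 67.9, 89.7, 75.5, 66.9 and 62.03 CPM in the KO group. Egfr WT PSC replicates 1 and 2 were its highest libraries and its spread was larger with Egfr WT PSCs (85.8 ± 21.1 against 72.4 ± 10.8 CPM; edgeR log2 fold change -0.24, SE 0.17 and adjusted p = 0.728). Without Egfr WT PSC replicate 1 its fold change was -0.12. The other motors Kif11 (0.05) and Kif23 (-0.11), the bundler Prc1 (-0.02) and the spindle proteins Tpx2 (-0.05), Nusap1 (-0.13), Hmmr (0.04), Dlgap5 (0.06) and Ckap2l (-0.08) had fold changes within 0.13 of 0 on the log2 scale, as did the cytokinesis scaffold Anln (0.08).

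The proliferation marker Mki67, which coats mitotic chromosomes, and the topoisomerase Top2a are often used to count cycling cells. Mki67 was at 48.9, 51.9, 34.5, 44.2 and 60.98 CPM in the Egfr WT PSC libraries, replicates 1 to 5, against 25.1, 52.3, 86.4, 39.3 and 25.3 CPM in the Egfr KO PSC libraries. Egfr KO PSC replicates 1 and 5 were lowest and replicate 3 highest (48.1 ± 9.74 against 45.7 ± 25.4 CPM; edgeR log2 fold change -0.08, SE 0.31 and adjusted p = 0.966). Top2a was at 127, 86.4, 100.3, 131 and 142 CPM in the Egfr WT PSC libraries, replicates 1 to 5, against 63.97, 181, 227, 128 and 79.4 CPM in the Egfr KO PSC libraries. It had the same ends, and Egfr KO PSC replicate 4 lay within the Egfr WT PSC range (117 ± 23.05 against 136 ± 68.6 CPM; edgeR log2 fold change 0.21, SE 0.31 and adjusted p = 0.879). Without Egfr KO PSC replicate 3 the fold change of Top2a was -0.04 and that of Mcm2 -0.08, and that of Mki67 was 0.09 without either of Egfr KO PSC replicates 1 and 5 and 0.02 without Egfr WT PSC replicate 5.

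No member differed between the groups at an edgeR adjusted p below 0.05, and neither did any of the 17495 genes (0% called). At an unadjusted p below 0.05 there was 1 member, Uhrf1, where 8.15% of all genes passed. No member had groups without overlap in CPM, against 1.52% of all genes. DESeq2, run as an alternative, called none of the 53 and 0.733% of the genes to which it gave an adjusted p. Of the 23 replication genes 20 had a fold change above 0, with a median of 0.15, and of the 30 mitosis genes 15, with a median of 0.00, beside 50.1% and a median of 0.00 for all genes. The genes of a set move together across libraries, so the 20 replication genes are not 20 separate observations. That count was 14 without Egfr KO PSC replicate 3. The mitosis count was 4 without Egfr KO PSC replicate 3, 8 without Egfr WT PSC replicate 3, 9 without Egfr KO PSC replicate 2, and 25 without any one of Egfr WT PSC replicate 1, Egfr KO PSC replicate 1 or Egfr KO PSC replicate 5. The intervals remain wide: for Cdc6 the 95% interval ran from -0.16 to 1.22 and for Mki67 from -0.75 to 0.60, so differences within those bounds could not be resolved with 5 libraries per group.

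**Figure D4:**
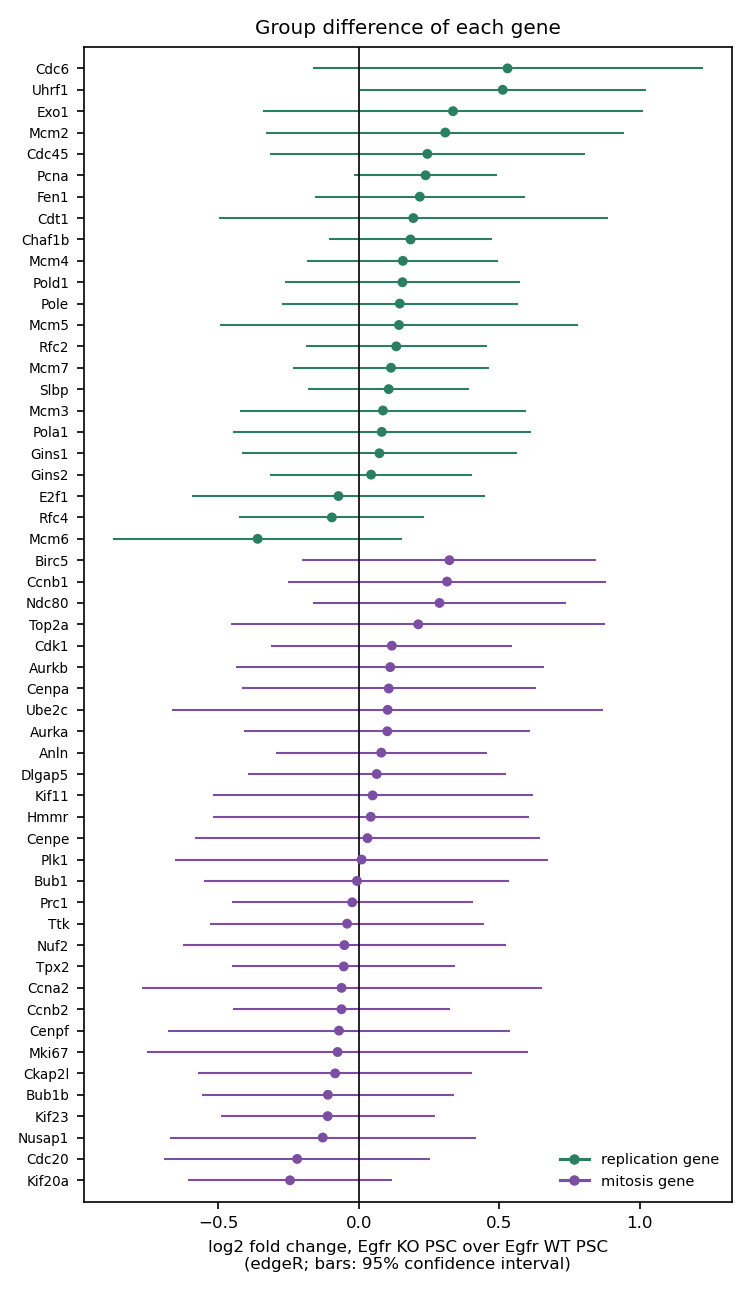
Log2 fold change of each gene, Egfr KO PSC over Egfr WT PSC, with its 95% confidence interval from edgeR (green replication, purple mitosis genes; 5 libraries per group). Replication genes lie mostly right of 0 (20 of 23) and mitosis genes on both sides (15 of 30), and the interval of Uhrf1 alone does not reach 0.

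The difference in spread was shared by most members. The SD of log2 CPM was larger with Egfr KO PSCs for 48 of 53 genes (22 of 23 replication and 26 of 30 mitosis genes), against 61.4% of all genes tested. The median ratio of the SDs was 2.12 for the members and 1.18 for all genes. The exceptions were E2f1, Ccnb2, Cdc20, Kif20a and Anln. For 36 of the 53 genes every Egfr WT PSC library lay inside the range of the Egfr KO PSC libraries, against 27.3% of all genes. Leaving out any single library left the count of larger SDs between 46 and 49. These genes vary together, so the 48 are not separate observations, and no test was made of the spread.

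**Figure D5:**
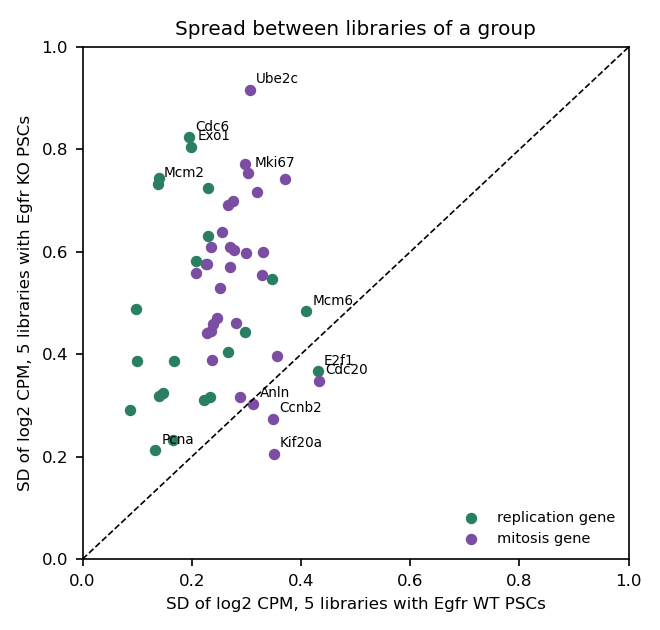
SD of log2 CPM over the 5 Egfr WT PSC libraries (horizontal) and over the 5 Egfr KO PSC libraries (vertical), 1 point per gene, with the line of equal SD dashed. Points above the line are the 48 genes with larger spread with Egfr KO PSCs, and Kif20a, Ccnb2, Cdc20, E2f1 and Anln lie below it.

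Levels between genes were compared in TPM, which accounts for transcript length. The mean over the 10 libraries was highest for Slbp (215 TPM), Pcna (163 TPM), Rfc2 (141 TPM), Ube2c (135 TPM) and Cenpa (133 TPM). It was lowest for Mki67 (6.63 TPM), Cdt1 (6.15 TPM), Ttk (6.0 TPM) and E2f1 (4.85 TPM). Neighbours in this order overlap widely: Pcna ranged from 134 to 212 TPM and Slbp from 169.9 to 273 TPM. For 3 genes much of the TPM fell on transcripts annotated as not productive. A transcript annotated as a retained intron held 61.3% of the TPM of Gins2 and 14.9% of its counts, where its protein-coding transcript held 33.7% and 82.4%. For Rfc2 another such transcript held 51.5% of the TPM and 37.5% of the counts, and the protein-coding transcript only 5.72% and 29.2%, so its place in this order is mostly that of transcripts not annotated as coding. For Cenpa a transcript annotated for nonsense-mediated decay held 46.4% of the TPM, and the protein-coding transcripts held 43.8%.

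Other genes of the same processes were taken from lists of known genes and read in the same 10 libraries. Further replication genes had a median r of 0.84 with the replication score, and further mitosis genes 0.86 with the mitosis score. Their counts are therefore not separate observations, nor independent of those of the members. Of all genes tested, 50.1% had a fold change above 0. Of 49 further replication genes 45 had a fold change above 0, with a median of 0.15, and none was called by edgeR. The 3 of lowest p were Ccne2, or cyclin E2 (20.2 ± 1.76 against 27.8 ± 9.94 CPM; edgeR log2 fold change 0.46, SE 0.22 and adjusted p = 0.630), the primase partner Pola2 (edgeR log2 fold change 0.24, SE 0.12 and adjusted p = 0.647) and the thymidine kinase Tk1 (edgeR log2 fold change 0.42, SE 0.22 and adjusted p = 0.656). Of 55 further mitosis genes 35 were above 0 (63.6%, where the mitosis members had 50%), with a median of 0.04. Those of lowest p were Ccnf (0.37), Racgap1 (-0.55) and Bub3 (-0.16). Of 17 cell cycle transcription factors and DREAM or MuvB subunits 8 were above 0, with a median of -0.01. Among these Foxm1, which drives mitosis genes, was at 8.84, 9.68, 5.43, 9.31 and 11.2 CPM in the WT group against 7.45, 12.6, 26.1, 12.5 and 5.89 CPM in the KO group. Its highest library was Egfr KO PSC replicate 3, as for 19 of the 30 mitosis members (edgeR log2 fold change 0.54, SE 0.36 and adjusted p = 0.723). E2f7 (0.35) and E2f8 (0.39), which repress E2F targets, were highest in that library too. Without it the fold changes were 0.12 for Foxm1, 0.09 for E2f8, 0.23 for E2f7, 0.24 for Tk1 and 0.23 for Ccnf, and without Egfr WT PSC replicate 1 that of Racgap1 was -0.33.

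The 12 inhibitors of cyclin-dependent kinases and arrest genes had 9 members above 0, with a median of 0.20. The gene of lowest p was Cdkn2c, which encodes the CDK4 and CDK6 inhibitor p18. It was at 10.03, 6.399, 3.65, 4.45 and 6.603 CPM in the WT group against 2.01, 2.703, 2.85, 3.14 and 3.599 CPM in the KO group. All 5 Egfr KO PSC libraries lay below all 5 Egfr WT PSC libraries, by little at the boundary (6.23 ± 2.47 against 2.86 ± 0.587 CPM; edgeR log2 fold change -1.12, SE 0.28 and adjusted p = 0.396). DESeq2 called it (adjusted p = 0.0203). Over the 10 libraries its level had an r of -0.04 with the replication score and 0.27 with the mitosis score. Ccng2 (edgeR log2 fold change 0.33, SE 0.14 and adjusted p = 0.593) and Btg2 (edgeR log2 fold change -0.33, SE 0.16 and adjusted p = 0.630), both linked to arrest, followed in order of p.

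Genes outside all lists were ranked by Pearson's r with each score across the 10 libraries. The ranking kept genes with a mean level of 5 CPM or more and left out symbols of predicted genes or clones. Those most like the replication score were Brip1 (0.99), Hat1 (0.98), Atad2 (0.98), Pclaf (0.98) and Fignl1 (0.97). The genes most like the mitosis score were Ercc6l (0.98), Gcat (0.95), Knstrn (0.94), Hirip3 (0.94) and Cdk4 (0.94).

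Library measures are given here beside the scores, each r with the replication score first and the mitosis score second. The summed level of 10 epithelial markers was 17671 to 18982 CPM in the WT group and 15333 to 26787 CPM in the KO group, and all 10 passed the filter. The mean log2 CPM of these markers ran against both scores over the 10 libraries (r = -0.84 with replication and -0.90 with mitosis) and was highest in Egfr KO PSC replicates 5 and 1. Krt8 and Krt18 had r of -0.87 and -0.80 with the replication score, and 8 of the 10 markers had a negative r, Epcam and Spint1 being the exceptions. Total counts had r of -0.60 and -0.47, and the mitochondrial share of counts -0.08 and -0.03. Fibroblast markers (12 of 12 above the filter) summed to 379 to 973 CPM in the WT group and 351 to 1260.4 CPM in the KO group. Much of this sum was Col3a1 (412 ± 195 and 477 ± 350 CPM, at most 1071 CPM). The mean log2 CPM of the 12 markers was 3.52 ± 0.44 in the WT group and 2.94 ± 0.33 in the KO group, with r of -0.15 and 0.08. Macrophage markers (11 of 12) summed to 41.6 to 99.9 and 54.5 to 87.2 CPM, with r of their mean level of 0.04 and 0.21. Single macrophage markers differed: Adgre1 was below 1 CPM in every library, while Mrc1 was at 27.2 ± 8.21 and 39.4 ± 16.4 CPM. Mean CPM was higher in the KO group for Mrc1, Cd68 and Csf1r. It was lower there for all other macrophage markers above the filter, such as Lyz2 (9.99 ± 9.91 and 3.42 ± 2.61 CPM). Cd68 was at 11.8 ± 4.16 and 13.1 ± 5.70 CPM, with r of -0.82 and -0.85. With the replication score, r of these markers ran from that of Cd68 to 0.37 for C1qb. Endothelial markers (8 of 8) summed to 23.5 to 37.6 and 9.67 to 50.2 CPM, with r of 0.33 and 0.48. Erythroid markers (4 of 6) summed to 6.36 to 40.1 and 0.857 to 3.398 CPM, with r of -0.08 and 0.13. Acinar markers (8 of 8) summed to 106 to 433 and 81.5 to 498 CPM, with r of 0.35 and 0.21. Neutrophil markers (4 of 9) were nearly absent, at most 4.95 CPM in sum, with r of 0.27 and 0.19. The part of these measures in the spread of the scores was not tested. File names carry the number 8, 9 or 10, whose meaning is not stated, and within these numbers the replication score differed between groups by 0.25, 0.29 and -0.09 and the mitosis score by 0.06, 0.10 and -0.27, from 1 or 2 libraries per group each.

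Depth differed somewhat between libraries. Total counts in genes lay between 39534055, in Egfr KO PSC replicate 3, which had the highest scores, and 53816086, in Egfr WT PSC replicate 2. Genes detected lay between 26098 and 27379, and the mitochondrial share between 1.85% and 4.51%. No molecular identifiers were used, so reads are not independent molecules and an interval from counts alone would cover counting error only. Libraries with less RNA were given more PCR cycles, and the labels do not give the input of each.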

How the data were processed

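The authors deposited 1 transcript quantification per library, with estimated counts, TPM and effective lengths. Per the submitters' processing notes these came from Salmon 1.9.0 and GRCm39, with an annotation release not given in the sources used. Whether counting used strand is not stated, so a gene and its antisense partner may share reads. RNA was purified with TRIzol and a micro column and amplified with a low-input kit, per the labels' protocols.

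Transcripts were assigned to genes with GENCODE M21 (names only). Of 147828, 137063 matched (92.7%), holding 98.1% to 98.7% of the deposited expected counts, and the rest were left out. Counts were summed per gene and rounded. Differences, on the log2 scale with the KO group over the WT group, came from the quasi-likelihood test of edgeR 4.0.16 (R 4.3.3; TMM; minimum count 10), without covariates, with Benjamini-Hochberg adjustment over 17495 genes and a threshold of 0.05. The code was tested on simulated data. Scores are mean log2 CPM with a prior count of 2. The deposited TPM values were summed per gene for levels. Members and lists were chosen with earlier results of these data known. Of 252 listed names, Lin54 was not matched. The text gives in full 6 anchors (Mcm2, Pcna, Uhrf1, Mki67, Top2a, Ccnb1) and, from the genes of lowest p, members with a mean of at least 5 CPM up to 6 per set, then 3 genes per further list; genes outside this rule are named for their role and were chosen with values known. Alternatives were DESeq2 1.42.0, limma 3.58.1 (voom, and log2(TPM + 1)), no filter, other scalings, covariates and leaving out each library.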

Additional observations from a re-analysis of the deposited data

Results flagged for a closer look

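Within the groups of 5 libraries, 2 values lay apart from the other 4 by Dixon's ratio, with a critical value of 0.71. Birc5 in Egfr WT PSC replicate 3 was at 5.08 log2 CPM, with the nearest library of the group at 5.51 and the highest at 5.65 (ratio 0.759). Dlgap5 in the same library was at 4.49 log2 CPM, with the nearest at 5.03 and the highest at 5.18 (ratio 0.773). This library also had the lowest mitosis score of its group. A total of 134 groups of values were examined, and chance flags about 1 in 20 groups.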

How the results depend on the processing

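The number of members called between the groups was 0 under every alternative run. Over all genes the count called was 0 with edgeR, 136 with DESeq2, 3 with limma voom, 1 without the filter and 2 with limma on log2(TPM + 1), and 0 to 4 when single libraries were left out. Genes at an unadjusted p below 0.05 numbered 1426, and 2267 with voom, 2266 without the filter, 624 with the macrophage score as a covariate, and 992 to 1983 with a library left out. Members at that level numbered 1, and 3 with voom, 0 with limma on TPM, 0 with the file-name number, the fibroblast score or the macrophage score as a covariate, and 0 to 4 with a library left out. Mitosis genes above 0 numbered 15, and 9 with limma on TPM, 23 with the macrophage score as a covariate and 4 to 25 with a library left out, while replication genes ranged from 14 to 21 with a library left out. The fold change of Mki67, -0.08, became 0.21 with the fibroblast score and 0.16 with the macrophage score as a covariate and ranged from -0.43 to 0.0895 with a library left out. That of Cdc20 became 0.0164 with the macrophage score. With a library left out, Mcm2 ranged from -0.0833 to 0.47 and Top2a from -0.0424 to 0.40. The log2 fold change of Cdkn2c, -1.12 in both, passed the threshold with DESeq2 only. The causes were not tested. The replication score difference ranged from -0.04 to 0.23 and the mitosis score difference from -0.20 to 0.09 with a library left out. The first was -0.02 with medians over genes in place of means, and the second 0.10 with the macrophage score as a covariate. The agreement of the scores was 0.85 to 0.94 with a library left out and 0.96 with medians. The count of members with larger spread was 46 to 49 with a library left out, 48 with RLE factors and 51 on log2(TPM + 1), alternatives chosen after seeing the data.

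With 5 libraries per group, the spread between libraries limits what can be resolved. The least counted member value was 193 counts, and whether depth also limits the comparison was not tested. No paired analysis was possible because the labels give no replicate numbers that the groups share: the numbers 1 to 5 used here only name libraries in each group. The file-name number, which occurs in both groups and whose meaning is not stated, entered as a covariate.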

Other observations

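Some genes of the same processes ran against or apart from the scores, and these were chosen after their values were seen. Pttg1, which encodes securin, the inhibitor of separase, had r of -0.81 with the replication score and -0.90 with the mitosis score over the 10 libraries. Lin52, a subunit of MuvB, had r of -0.72 and -0.92. The ribonucleotide reductase subunit Rrm2 had r of -0.15 and -0.08, where its partner Rrm1 had 0.83 and 0.95. Hjurp, the chaperone of the centromeric histone, had r of -0.13 and -0.10 at a mean of 151 CPM. The single-stranded DNA binding subunits differed too, with r with the replication score of -0.24 for Rpa1, 0.96 for Rpa2 and 0.74 for Rpa3. Among arrest genes Cdkn1a, or p21, had r of -0.42 and -0.64. No explanation was tested for any of these.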
